A study of Caenorhabditis elegans with 2 samples.

Results

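Of 2416 regions called for the GFP-tagged RNA-binding protein RBM-26 on the nuclear chromosomes of young adult Caenorhabditis elegans, 386 had their summit in a long gap between tandem genes. A gap is the space between neighbouring protein-coding genes, tandem means that both genes are read from the same strand, and long means over 1000 bp. Summits no more than 250 bp away from small non-coding genes (tRNA, snoRNA, snRNA and miRNA) had been set aside first. The members make up 16.0% of the nuclear regions (95% Wilson interval 14.6 to 17.5%), and the gaps themselves cover 18.0 Mb, or 18.0% of the genome. Of the members, 195 lie between gene pairs on the minus strand. The other classes set beside them below are 254 summits in shorter tandem gaps, 460 between divergent genes, which are read away from each other, and 97 between convergent genes, which are read towards each other.

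The data come from chromatin immunoprecipitation and sequencing (ChIP-seq) of whole worms of strain OP801, collected as young adults at 66 hours after growth from L1 larvae that had been starved after bleaching. The strain carries the integrated transgene wgIs801, a fosmid in which B0336.3 (rbm-26) is fused to TY1, EGFP and 3xFLAG tags, with unc-119(+) as rescue marker in the unc-119(tm4063) mutant. There is 1 group with 2 biological replicates, immunoprecipitated with an antibody to GFP from chromatin sonicated to 200 to 800 bp. No untagged or input library was analysed here, signals from all tissues of the worm are mixed, and read depth is unknown because only peak lists were used.

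A gap between tandem genes holds the end of the upstream gene, where its transcript is cleaved, polyadenylated and released by RNA polymerase II, and the promoter of the downstream gene. In C. elegans many genes packed close together in tandem are operons, transcribed as 1 precursor and separated by trans-splicing, whereas a gene after a long gap usually has a promoter of its own. Many worm transcripts are trans-spliced to a short leader, so that the annotated start can lie some way downstream of the site of initiation. RBM-26 is the worm counterpart of human RBM26 and RBM27, which have been found with the nuclear machinery that hands polyadenylated RNAs to the exosome for decay.

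The sequences at some strong summits of each place in the gap are given as examples, which need not be typical of the place. Each holds the summit base and the 100 bases on either side of it, read 5′ to 3′ in the direction of the gene pair from the RefSeq genome WBcel235, which is the same assembly as ce11. Capitals mark GAGAG and its reverse complement, CACGTG as an E-box, the polyadenylation hexamer AATAAA, and TGCGTCTC and its reverse complement, the last having been added after these sequences had been seen. The members of this report past rps-6 and F40E3.3 are stronger than all 3 shown past an upstream end, and the one past rps-27 is stronger than the mrpl-51 one. These were left out. Within 500 bp past the upstream gene's end, the 3 shown are among the strongest of this place and lie at chrII:2920909-2921109 (plus strand, between Y110A2AR.1 and ZK355.2), chrII:1323166-1323366 (plus strand, between vig-1 and jip-1) and chrIV:12032481-12032681 (plus strand, between mrpl-51 and sqst-1).
Y110A2AR.1/ZK355.2: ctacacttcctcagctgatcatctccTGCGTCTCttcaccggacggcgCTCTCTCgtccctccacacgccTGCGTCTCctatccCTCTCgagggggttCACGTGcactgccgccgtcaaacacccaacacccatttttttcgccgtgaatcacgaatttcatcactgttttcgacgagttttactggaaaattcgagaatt
vig-1/jip-1: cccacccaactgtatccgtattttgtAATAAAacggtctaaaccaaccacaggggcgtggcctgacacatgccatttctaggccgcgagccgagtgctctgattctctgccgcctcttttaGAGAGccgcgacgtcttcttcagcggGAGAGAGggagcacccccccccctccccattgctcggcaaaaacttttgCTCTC
mrpl-51/sqst-1: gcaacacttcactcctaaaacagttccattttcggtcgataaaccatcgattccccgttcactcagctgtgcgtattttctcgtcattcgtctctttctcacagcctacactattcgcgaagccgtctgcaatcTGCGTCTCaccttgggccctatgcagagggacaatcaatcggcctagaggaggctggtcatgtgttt
Within 500 bp before the downstream gene's start, the 3 shown lie at chrX:14818859-14819059 (minus strand, between mbk-1 and epn-1), chrX:7823194-7823394 (plus strand, between sek-1 and eef-1A.2) and chrIV:13887654-13887854 (plus strand, between thoc-7 and lin-66).
mbk-1/epn-1: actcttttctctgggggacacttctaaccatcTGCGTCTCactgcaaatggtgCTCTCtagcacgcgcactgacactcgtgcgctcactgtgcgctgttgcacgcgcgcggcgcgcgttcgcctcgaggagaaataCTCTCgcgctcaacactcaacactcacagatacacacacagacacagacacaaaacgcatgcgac
sek-1/eef-1A.2: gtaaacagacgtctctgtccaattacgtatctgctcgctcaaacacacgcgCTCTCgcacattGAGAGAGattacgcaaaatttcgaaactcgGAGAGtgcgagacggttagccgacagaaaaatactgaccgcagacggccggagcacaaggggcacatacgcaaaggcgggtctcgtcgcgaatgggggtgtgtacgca
thoc-7/lin-66: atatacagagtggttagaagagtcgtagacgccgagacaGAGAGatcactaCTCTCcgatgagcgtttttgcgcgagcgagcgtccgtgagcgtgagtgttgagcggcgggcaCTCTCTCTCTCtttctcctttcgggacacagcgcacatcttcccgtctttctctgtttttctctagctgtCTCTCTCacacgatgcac
Over 500 bp from both genes, the 3 shown lie at chrX:14525819-14526019 (minus strand, between nspc-18 and nspc-17), chrV:1151392-1151592 (plus strand, between cutl-22 and cmd-1, inside the long non-coding RNA gene linc-128) and chrX:13700796-13700996 (plus strand, between adm-2 and K02D3.1).
nspc-18/nspc-17: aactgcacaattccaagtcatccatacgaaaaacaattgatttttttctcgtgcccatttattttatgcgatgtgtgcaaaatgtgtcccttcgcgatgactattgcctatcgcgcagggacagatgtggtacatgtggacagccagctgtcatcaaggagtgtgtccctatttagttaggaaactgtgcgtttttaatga
cutl-22/cmd-1: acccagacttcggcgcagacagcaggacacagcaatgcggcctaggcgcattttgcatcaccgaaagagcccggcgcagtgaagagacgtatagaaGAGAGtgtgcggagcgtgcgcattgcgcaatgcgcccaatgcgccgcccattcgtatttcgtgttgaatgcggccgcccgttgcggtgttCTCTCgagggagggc
adm-2/K02D3.1: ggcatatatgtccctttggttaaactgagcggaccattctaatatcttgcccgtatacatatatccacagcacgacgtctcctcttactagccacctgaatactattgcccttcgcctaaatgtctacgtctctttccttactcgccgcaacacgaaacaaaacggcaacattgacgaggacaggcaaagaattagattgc
GC content of these sequences ran from 42.3% at the nspc-18/nspc-17 summit to 60.7% at the cutl-22/cmd-1 summit. The 3 past upstream ends had 52.7, 56.2 and 49.8%. Over all 128 members of that place the median was lower, at 41.6% for the summit base with 50 bp on either side. The thoc-7/lin-66 window held 7 matches to the reverse complement of GAGAG, and the Y110A2AR.1/ZK355.2 window held 2 matches to TGCGTCTC. The nspc-18/nspc-17 and adm-2/K02D3.1 windows held none of the marked motifs.

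Summits were densest just past the upstream gene. Within 500 bp past its end lay 128 members (33.2%, 95% Wilson interval 28.7 to 38.0%), within 500 bp before the downstream start lay 70 (18.1%, 14.6 to 22.3%), and 188 (48.7%, 43.8 to 53.7%) were far from both. Per megabase of usable gap sequence, this was 56.2 summits past upstream ends, 30.5 before downstream starts and 14.1 far from both. Of all 4609 long tandem gaps, 2.78% had a summit past the upstream end and 1.52% had one before the downstream start. Distances are from annotated gene ends and starts.

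Of the 100 bp stretches counted up to 2000 bp from either gene, the densest was 100 to 200 bp past the upstream end, with 48 summits or 105 per Mb. The first 100 bp held 24 summits (52.6 per Mb), the stretch of 200 to 300 bp held 28 (61.6 per Mb), and each of the next 100 bp stretches up to 500 bp held 14 (30.8 per Mb). Before downstream starts the densest stretch of the series list was 200 to 300 bp away, with 20 summits (43.6 per Mb), and the last 100 bp before the start held 8 (17.4 per Mb). The lists of the replicates taken alone had their densest stretch past the upstream end at the same distance, with 36 summits (79.0 per Mb) in replicate 1 and 34 (74.6 per Mb) in replicate 2. Before downstream starts they did not share the series list's stretch. At 200 to 300 bp replicate 1's list had 12 summits (26.1 per Mb) and replicate 2's had 8 (17.4 per Mb), and the densest stretches there were 1900 to 2000 bp away in replicate 1 (34.5 per Mb) and 300 to 400 bp away in replicate 2 (21.8 per Mb).

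**Figure D1:**
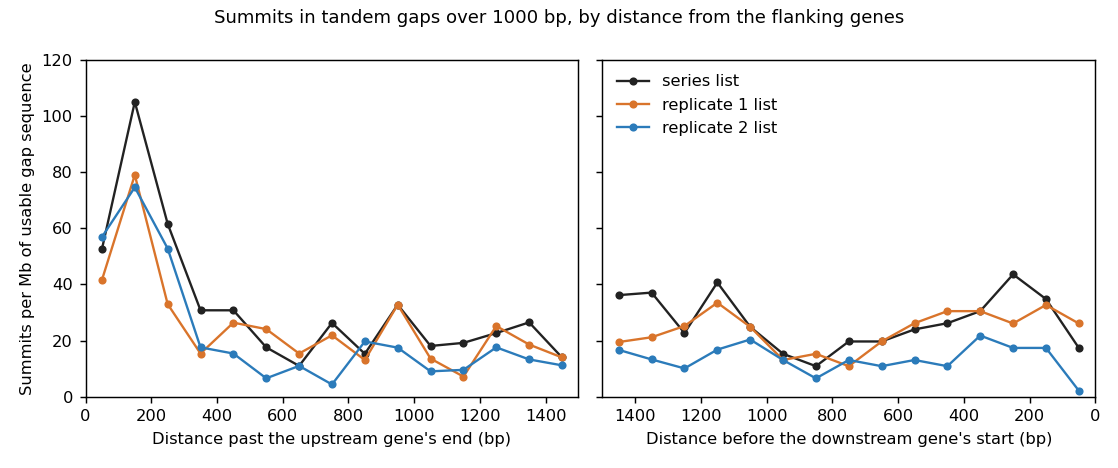
Summits per Mb of usable gap sequence (vertical axis) in 100 bp steps, against distance in bp past the upstream gene's end (left) and before the downstream gene's start (right), for the series list and each replicate's own thresholded list. All 3 lines peak 100 to 200 bp past the upstream end, at 105, 79.0 and 74.6 summits per Mb, and the replicate 2 line stays below the replicate 1 line over the 500 bp before the downstream start.

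The order of the places was the same in both replicates, but their sizes were not. In replicate 1's list the densities were 39.1 per Mb past ends, 29.2 before starts and 13.1 far from both, over 331 summits. In replicate 2's list they were 43.5, 13.9 and 7.66 per Mb, over 233 summits. Replicate 2 thus held more summits past ends (99, against 89 in replicate 1), and fewer before starts (32, against 67) and far from both (102, against 175).

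The share of members nearer to the downstream start than to the upstream end was below that of the gap sequence in the series list and in each replicate's list, but the difference did not pass the test in replicate 1's. It was 169 of 386 (43.8%, 38.9 to 48.8%), against 50.1% of the usable gap sequence (two-sided exact binomial test, p = 0.014, which treats summits as independent). In replicate 1's list it was 163 of 331 (49.2%, exact binomial p = 0.78), and in replicate 2's list 81 of 233 (34.8%, exact binomial p = 2.8e-06). In the wider series list it was 196 of 432 (45.4%, exact binomial p = 0.054). The difference between the replicates was not tested.

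Members were compared with the replicates' own lists by overlap. Both lists held 168 members (43.5%, 38.7 to 48.5%), only replicate 1's list held 107, only replicate 2's held 28, and 83 (21.5%) were in neither. Over all 2416 nuclear regions, 45.4% were in both lists, 541 in replicate 1's alone, 225 in replicate 2's alone and 553 (22.9%) in neither. Past upstream ends, 66 of 128 members were in both lists (51.6%, 43.0 to 60.0%), 16 in replicate 1's alone and 18 in replicate 2's alone. Before downstream starts, 20 of 70 were in both (28.6%, 19.3 to 40.1%), 31 in replicate 1's alone and 4 in replicate 2's alone. Far from both genes, 82 of 188 were in both (43.6%, 36.7 to 50.8%), 60 in replicate 1's alone and 6 in replicate 2's alone.

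**Figure D2:**
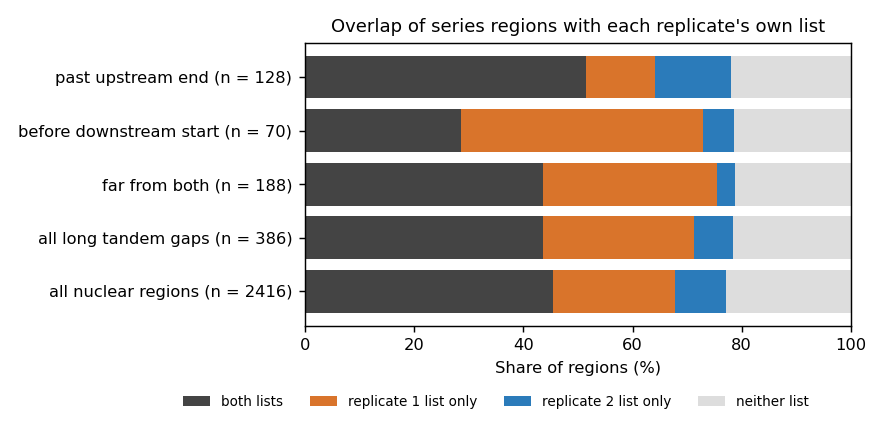
Share of regions (horizontal axis, %) that overlap both replicate lists, 1 of them or neither, for members by place, all members and all nuclear regions. The part found in replicate 1's list alone is widest before downstream starts (31 of 70) and narrowest past upstream ends (16 of 128).

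Signals in the replicates' longer ranked lists, which go below the threshold, were found for 377 members in both replicates. The deposited signal was higher in replicate 1 for 58 of 123 members past upstream ends (47.2%, 38.6 to 55.9%), for 50 of 67 before downstream starts (74.6%, 63.1 to 83.5%) and for 139 of 187 far from both (74.3%, 67.6 to 80.1%). Over all nuclear regions it was higher in replicate 1 for 57.6%. In the other classes it was higher in replicate 1 for 46.0% of summits in short tandem gaps, 64.9% between divergent genes and 29.0% between convergent genes. Median signals past ends were 72.0 in replicate 1 and 76.1 in replicate 2, before starts 76.1 and 60.8, and far from both 80.3 and 67.3. Spearman's rho between the replicates' signals was 0.596 across the 377 members, a description over regions that share their libraries. What sets the replicates apart was not tested.

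The share of members found in both lists did not differ past the threshold from that in any other class. It was 43.5% of members against 50.8% in short tandem gaps, 51.3% between divergent genes and 48.5% between convergent genes (Benjamini-Hochberg adjusted p = 0.11, 0.081 and 0.42, two-sided Fisher's exact tests). In the wider series list the differences from short tandem gaps (39.1% against 48.3%, adjusted p = 0.028, Fisher's exact test) and from divergent gaps (48.0%, adjusted p = 0.023) passed it. At a global irreproducible discovery rate (IDR) of 0.001 the direction was the opposite against divergent and convergent genes. There it was 87.6% of members, against 84.2% and 79.3% (Fisher's exact tests, adjusted p = 0.34 for both). The IDR scores agreement between the replicates, so this filter itself favours regions in both lists. The changed direction therefore cannot be read as a result about the classes. Without the commonest interval width the direction was also the opposite against convergent genes, at 75.5% against 68.8% (Fisher's exact test, adjusted p = 0.61).

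Long tandem gaps were occupied less often than divergent gaps of over 1000 bp and more often than convergent ones. A summit lay in 333 of 4609 tandem gaps (7.22%, 6.51 to 8.01%), against 238 of 2493 divergent gaps (9.55%, adjusted p = 0.0014, Fisher's exact test) and 41 of 921 convergent gaps (4.45%, adjusted p = 0.0019). These tests take no account of gap length, whose median was 2585 bp for tandem, 3187 bp for divergent and 2400 bp for convergent gaps. Per Mb of gap there were 21.4 summits in tandem, 22.3 in divergent and 13.0 in convergent gaps. Among gaps over 2000 bp the difference from divergent gaps did not pass the threshold (8.43% against 9.62%, Fisher's exact test, adjusted p = 0.18), and neither difference passed it in replicate 2's list alone (4.77% against 5.86% and against 3.37%, adjusted p = 0.068 for both). The difference from convergent gaps did not pass at a global IDR of 0.001 (3.84% against 2.61%, adjusted p = 0.067, Fisher's exact test) or without the commonest interval width (3.36% against 2.82%, adjusted p = 0.48).

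Longer tandem gaps were occupied more often but more thinly. Tandem gaps of 1000 to 2000 bp held a summit in 92 of 1749 (5.26%), those of 2000 to 4000 bp in 99 of 1402 (7.06%), those of 4000 to 8000 bp in 84 of 953 (8.81%) and those over 8000 bp in 58 of 505 (11.5%). The density over the same classes was 37.8, 26.6, 19.4 and 13.3 summits per Mb. Divergent gaps did not rise in the same order, with 73 of 777 (9.40%), 54 of 713 (7.57%), 61 of 582 (10.5%) and 50 of 421 (11.9%) over these classes, and 69.8, 27.2, 22.6 and 10.6 summits per Mb.

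**Figure D3:**
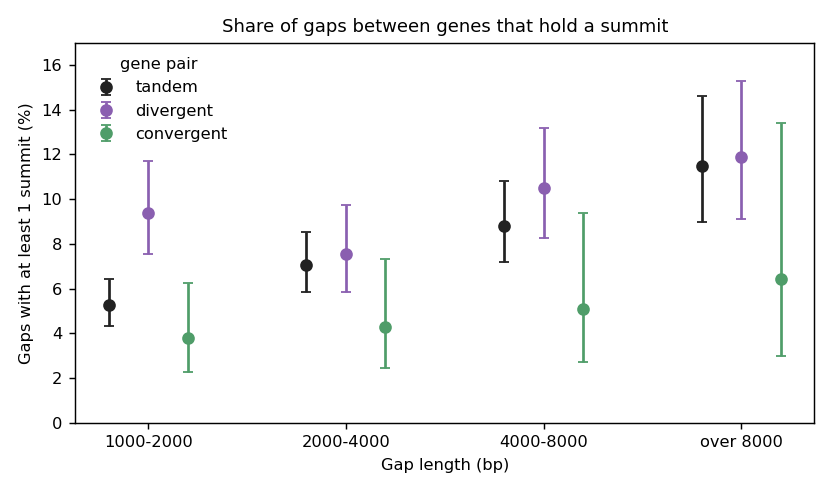
Share of gaps with at least 1 summit (vertical axis, %) by gap length in bp and by orientation of the flanking genes. Points are shares and bars 95% Wilson intervals, and tandem gaps run over the length classes through 5.26, 7.06, 8.81 and 11.5%, with the tandem and divergent intervals apart in the shortest class and overlapping in the longer ones.

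Most occupied gaps had a single summit. There were 290 gaps with 1 member, 35 with 2, 6 with 3 and 2 with 4. The gap of 20938 bp between got-2.2, a mitochondrial aspartate aminotransferase gene, and W05H9.4 on the X chromosome held 4, with series signals of 107, 175, 236 and 260. The 3 stronger of these were in both replicate lists and the first was in neither. The gap of 5411 bp between npr-13, which encodes a neuropeptide receptor, and ret-1, the reticulon gene, on chromosome V also held 4, with signals of 97.3, 130, 106 and 120, and none of these was in both lists. The last of them lay 103 bp before the ret-1 start. In the longest gap with a member, 27973 bp between cab-1 and F57G12.1, the summits lay 438 and 1345 bp before the downstream start, with signals of 141 and 111. The gap of 25548 bp between the T-box gene tbx-41 and B0294.3 held 1 summit of signal 206, 3572 bp before the downstream start. Between the T-box gene tbx-34 and tra-1, the terminal regulator of worm sex determination, a gap of 21196 bp held summits of signal 188 and 126 that lay 2322 and 570 bp before tra-1.

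The series signal, a value per peak that the authors deposited without a unit, had a median of 138 over the members (quartiles 116 and 193, range 43.7 to 619), against 144 over all nuclear regions. By place the medians were 143 past upstream ends, 134 before downstream starts and 140 far from both. Of the 20 strongest members, 13 were far from both genes, 6 past an upstream end and 1 before a downstream start, all 20 were in both replicate lists, and 17 had the higher signal in replicate 1. The X chromosome held 11 of these 20 and 30 of the 100 strongest, against 82 of all 386 members.

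The strongest member far from both genes, and of all, lay between nspc-18 and nspc-17, of a nematode-specific peptide family. Its series signal was 619, with 318 in replicate 1 and 289 in replicate 2, and its summit was 738 bp before nspc-17. The member between cutl-22 and cmd-1, the calmodulin gene, had a signal of 606 (315 in replicate 1 and 289 in replicate 2) and lay inside linc-128, 4779 bp before cmd-1. The member between adm-2, a gene for an ADAM metalloprotease, and K02D3.1 had 515 (280 in replicate 1 and 232 in replicate 2). The fourth member, between ZK899.6 and gap-2, a Ras GTPase-activating protein gene, had 483, with 246 in replicate 1 and 242 in replicate 2. The next were the members before fbxb-58 (477) and before sup-26, which encodes an RNA-binding protein of the sex determination pathway (475, with 233 in each replicate). The member between F55G7.5 and dot-1.4, of the DOT1 histone methyltransferase family, had 458, with 220 in replicate 1 and 243 in replicate 2. It lay 603 bp past F55G7.5 and 5868 bp before dot-1.4. Another of this place among the 20 strongest lay between hpk-1, the homeodomain-interacting protein kinase gene, and F20B6.9 (428). Others lay before the insulin-like gene ins-39 (404), the Polycomb-type ubiquitin ligase gene spat-3 (392) and the nuclear receptor gene nhr-88 (382). The rest lay between T14G8.3 and the branched-chain aminotransferase gene bcat-1 (348) and before the bromodomain gene bet-2 (340). The bcat-1 member was 2438 bp past T14G8.3 and 5017 bp before bcat-1. The nhr-88 member had the widest gap between replicates of the 20, with 232 in replicate 1 and 152 in replicate 2.

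The strongest member before a downstream start lay 445 bp before epn-1, the epsin gene of clathrin endocytosis, and 950 bp past mbk-1, a DYRK-family kinase gene. Its signal was 416, with 212 in replicate 1 and 206 in replicate 2. It was followed in this place by the members 360 bp before eef-1A.2, a translation elongation factor gene (301), and 325 bp before lin-66 (299).

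Past upstream ends, the strongest member lay 117 bp beyond rps-6, a gene of the small ribosomal subunit. Its signal was 443, with 225 in replicate 1 and 216 in replicate 2. The member 428 bp past F40E3.3, before mage-1, had 420, with 217 in replicate 1 and a lower value in replicate 2. The member 105 bp past Y110A2AR.1 had 336 (167 in replicate 1 and 164 in replicate 2), and the one 193 bp past vig-1, a component of the RNA-induced silencing complex, had 327 (183 in replicate 1 and 139 in replicate 2). The member 100 bp past rps-27 had 321 (161 in replicate 1 and 156 in replicate 2), and the one 427 bp past mrpl-51, of the mitochondrial ribosome, had 318 (169 in replicate 1 and 152 in replicate 2).

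**Figure D4:**
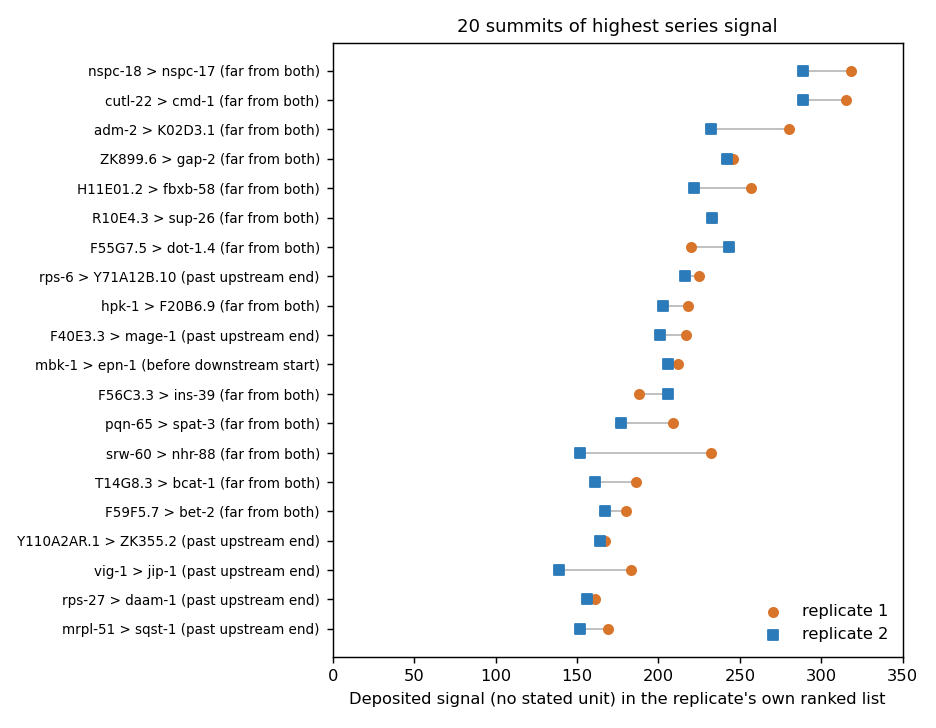
Deposited signal in each replicate's own ranked list (horizontal axis, no stated unit) for the 20 members of highest series signal, named by upstream and downstream gene with the place in the gap, replicate 1 as circles and replicate 2 as squares. In 17 of the 20, replicate 1 is the higher, and the pair between srw-60 and nhr-88 is the farthest apart, at 232 and 152.

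Every long tandem gap that begins at the end of a cytosolic ribosomal protein gene named rpl or rps held a summit. All of these summits were past the end. Ribosomal protein genes under other names were not counted in this family. There were 7 such gaps and 7 members, against 2.78% of all long tandem gaps with a summit in that place. Beside rps-6 and rps-27 they lay 125 bp past rpl-31 (signal 315, with 115 in replicate 1 and 196 in replicate 2), 163 bp past rps-8 (193, with 68.3 in replicate 1 and 127 in replicate 2) and 106 bp past rps-9 (192, with 88.1 in replicate 1 and 104 in replicate 2). The others lay 22 bp past rpl-9 (181, with 99.7 in replicate 1 and 83.2 in replicate 2) and 80 bp past rpl-21 (154, with 44.9 in replicate 1 and 128 in replicate 2). In the replicates' own lists a summit was present in 6 of the 7 gaps in replicate 1 and in 7 of 7 in replicate 2. Neither of the 2 long tandem gaps that end at the start of an rpl or rps gene held a member. The family was listed with earlier results of these data known, so the count is a description without a test. Without these gaps, a setting chosen after the data had been seen, the share of members past an upstream end was 31.9%.

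Among the other families counted, none had a member in every gap after its genes. No gap that begins (7 gaps) or ends (1 gap) at a histone gene held a member. None did at a gene of the vitellogenins (1 and 2 gaps), the yolk proteins of the hermaphrodite intestine. With 7.22% of all long tandem gaps occupied, so few gaps cannot show whether these families differ from the rest. In replicate 2's own list, however, a summit was present in 1 of the 7 gaps after a histone gene, in the 1 gap after a vitellogenin gene and in 1 of the 2 before one, while replicate 1's list had none in these gaps. Of gaps that begin at a mitochondrial ribosomal protein gene, 1 of 6 held a member, the one past mrpl-51. Heat shock protein genes had a member after 1 of 4 genes, 7147 bp past hsp-16.1 (signal 173), and before 2 of 5. The member 418 bp before hsp-1, the constitutive HSP70 gene, had 284, with 90.5 in replicate 2 and a higher value in replicate 1. The gap before hsp-25 held 2, of 184 and 113. Gaps next to chemoreceptor genes, a very large family in the worm, were occupied in 5 of 404 after such a gene (1.24%) and in 6 of 399 before one (1.50%), against 7.22% of all long tandem gaps. Of the 6 members before a chemoreceptor gene, 5 lay past the end of the upstream gene, which was F09E5.7, T24H7.9, fbxa-197, tcc-1 or duo-1. Nuclear hormone receptor genes had a member in 2 of 71 gaps after them (2.82%) and in 7 of 83 before them (8.43%). F-box genes had one in 1 of 84 and 2 of 66, and C-type lectin genes in 3 of 57 and 0 of 48. No family's difference from all long tandem gaps was tested.

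Genes named unc for uncoordinated movement had a member in 3 of 27 gaps after them (11.1%) and in 6 of 38 before them (15.8%), against 7.22% of all long tandem gaps, with no test of the difference. After unc-3, a COE-family transcription factor gene, lay 2 summits in the same gap, 134 bp past unc-3 (173, with 90.4 in replicate 1 and 83.5 in replicate 2) and 402 bp before tatn-1, the tyrosine aminotransferase gene (131, with 83.8 in replicate 1 and 54.8 in replicate 2). After unc-49, the GABA receptor gene, the summit was 1691 bp away and 1130 bp before hpd-1 (179, with 27.6 in replicate 1 and 80.6 in replicate 2). This member was in both replicate lists. A replicate's value comes only from rows that hold the series summit, so 27.6 may not be that of the listed replicate 1 region. After unc-132 the summit was 2161 bp away and 912 bp before lin-40 (120). Before unc genes the members were past the upstream ends of ruvb-1 (before unc-41, 213), scc-1 (before unc-85, 171) and R05D3.8 (before unc-116, 149), and near the starts of unc-23 at 19 bp (175, with 124 in replicate 1 and 54.8 in replicate 2) and unc-76 at 270 bp (117). The gap before unc-62, a homeobox gene of the Meis class, held 2 members of 115 and 104, both far from the genes.

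The summits were richer in G and C than their surroundings. The median GC of the summit base with 50 bp on either side was 46.5%, against 34.2% for the mean of the flanks 500 bp away and 33.7% for the median of all 174811 such windows that tile the long tandem gaps. It was higher at the summit than in the flanks for 328 members (85.0%), against 79.3% of all nuclear regions. Past upstream ends the median was 41.6% and 93 of 128 members (72.7%) were above their flanks. Before downstream starts it was 48.5% (61 of 70, 87.1%), and far from both 49.5% (174 of 188, 92.6%). In the other classes the median was 44.6% in short tandem gaps, 49.5% between divergent genes and 38.6% between convergent genes.

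**Figure D5:**
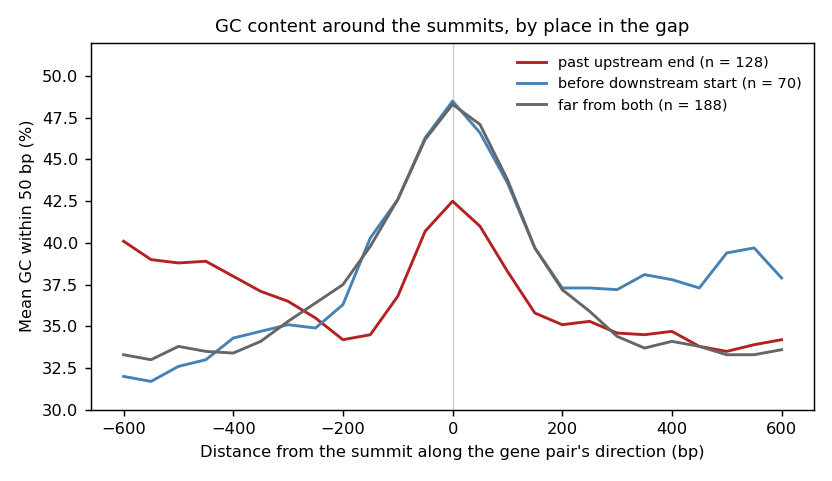
Mean GC content of a base and the 50 bp on either side (vertical axis, %, from 30) against distance from the summit in bp along the direction of the gene pair, for members by place. All 3 lines peak at the summit, at 42.5% past upstream ends, 48.5% before downstream starts and 48.3% far from both, and windows far from the summit can reach into the flanking genes.

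Short motifs were counted on both strands of the same windows around the summit, and a match is a description of the letters, not of a bound site. GAGAG was in 164 of 386 members (42.5%), against 31.7% of all nuclear regions, 12.7% of all gap windows and 27.6% of the 15069 gap windows with a GC content at or above the members' median. It was in 31.2% of members past upstream ends, 45.7% before downstream starts and 48.9% far from both. CACGTG, the palindromic E-box that many basic helix-loop-helix proteins recognise, was in 37 members (9.59%, 7.03 to 12.9%), against 5.55% of all nuclear regions, 1.39% of gap windows and 2.31% of the GC-rich ones. TGCGTCTC, chosen after seeing the sequences, was in 36 (9.33%), against 6.33% of nuclear regions, 0.601% of gap windows and 2.77% of the GC-rich ones, and its share is a description only. The gap windows include those at the members themselves, and the GC-rich set was added after the data had been seen. The median GC of that set was 49.5%, above the members' 46.5%, so it is not matched to them.

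The E-box members included the summits past rpl-31 (315), past xbp-1, the gene of the unfolded protein response transcription factor (313), past eef-2 (176) and past eif-2alpha (140), both translation factor genes, and past cox-5B (94.4), a subunit gene of cytochrome oxidase. Before starts they included the summits 257 bp before imb-3 (259), an importin gene, 168 bp before the autophagy gene epg-7 (236) and 148 bp before the autophagy gene atg-9 (115). Far from both genes they included those 4803 bp before the AMP kinase subunit gene aakg-3 (236) and 2376 bp before the trehalose synthase gene tps-2 (214). Others lay 1189 bp before the isocitrate dehydrogenase gene idh-1 (162), 1948 bp before mml-1 (153) and 8012 bp before mxl-3 (144). Each was nearer to the upstream gene, 3453 bp past gbb-1, 869 bp past catp-4, 581 bp past F38E11.9, 1172 bp past T20B12.7 and 2385 bp past C49F8.15. The genes mml-1 and mxl-3 encode basic helix-loop-helix proteins of the Mondo and Max families. These genes were picked from the 37 after their values had been seen.

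AATAAA, the hexamer of the polyadenylation signal, was in 45 members (11.7%). It was in 14.1% of all nuclear regions, 23.9% of gap windows and 4.39% of the GC-rich ones. It was in 25 of 128 members past upstream ends (19.5%, 13.6 to 27.2%), against 25.6% of the gap windows of that place, and in 12 of 188 far from both (6.38%). Read in the direction of the gene pair alone, AATAAA was in 11 of the 128 past upstream ends (8.59%), against 13.2% of that place's windows. Of all 386 members, 23 (5.96%) held it in that direction, against 11.5% of all gap windows. TATAAA was in 16 members (4.15%), against 5.84% of all nuclear regions, 12.8% of gap windows and 2.56% of the GC-rich ones. A run of 7 T was in 36 (9.33%), against 9.23%, 24.9% and 4.84% of these sets. The splice acceptor hexamer TTTCAG was in 31 (8.03%), against 9.85%, 16.9% and 7.09%. For these motifs the members were thus below all gap windows, but near all nuclear regions and above the GC-rich windows. In the gene pair's direction alone, TATAAA was in 12 members (3.11%, against 7.02% of gap windows) and TTTCAG in 21 (5.44%, against 9.18%). CCGCCC was in 30 (7.77%), against 1.80% of gap windows and 7.92% of the GC-rich ones. TGATAA, the core read by GATA factors, was in 40 (10.4%), against 9.64% of gap windows and 3.09% of the GC-rich ones, and CCAAT was in 62 (16.1%), against 18.8% and 17.8%. Because the GC-rich windows hold fewer A and T than the members, their shares are no matched background for motifs such as AATAAA and TGATAA.

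Some members lay inside genes that make no protein. The summit of 39 members (10.1%) was inside an annotated non-coding gene or pseudogene, against 8.44% of all nuclear regions. This was more than in short tandem gaps (7 of 254, 2.76%, adjusted p = 8.1e-04, two-sided Fisher's exact test). How much of the gap sequence lies inside such genes was not counted for any class. The test therefore cannot separate the summits from the gaps that hold them. The difference from divergent gaps (10.4%, Fisher's exact test, adjusted p = 0.91) and from convergent gaps (6.19%, adjusted p = 0.49) did not pass the threshold. Of the 39, 32 were in a gene classed as ncRNA, 6 in a pseudogene and 1 in a lincRNA. With gaps over 500 bp as members, the share was 8.32% against 3.77% in the shorter ones (Fisher's exact test, adjusted p = 0.22). In replicate 2's list alone it was 8.15% against 2.66% (adjusted p = 0.057, Fisher's exact test).

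After linc-128, the strongest of these were in the overlapping genes T13H2.7 and T13H2.9, read from opposite strands before spat-3 (392), and in T04C12.14, between the actin genes act-2 and act-3 (280). Next were the summits in C10F3.15, between cpg-4 and fos-1, the Fos transcription factor gene (279), and in C08B11.11, past nrf-6 (256). The one in C10F3.15 lay 1121 bp past cpg-4 and 3136 bp before fos-1. Then came those in Y38A10A.8, before crt-1, the calreticulin gene (255), and in C07H6.15, past cgh-1, a germline RNA helicase gene (252). T13H2.7, T04C12.14, C07H6.15 and linc-128 are read in the direction of the gene pair, and C10F3.15 and C08B11.11 against it. ChIP-seq peaks carry no strand, so the summits cannot be given to one strand.

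Members were spread over all chromosomes. There were 42 on chromosome I, 61 on II, 65 on III, 63 on IV, 73 on V and 82 on X, or 20.2, 22.9, 31.5, 18.6, 18.9 and 20.6 per Mb of long tandem gap. The X chromosome had 13 members past ends, 19 before starts and 50 far from both, and chromosome I had 21, 7 and 14. Over the whole of each chromosome, all regions stood at 27.9 per Mb on I, 26.2 on II, 31.8 on III, 25.1 on IV, 19.6 on V and 17.4 on X. Chromosome III was thus the densest both for members and for all regions.

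Just inside the length of 1000 bp were the gaps of 1002 bp between vem-1 and dao-3 (signal 154), of 1007 bp between B0272.4 and B0272.3 (128) and of 1016 bp between CD4.11 and vps-37 (308). Just outside were those of 999 bp between let-418 and srh-76 (147), 995 bp between lgg-1 and C32D5.8 (298) and 994 bp between F02E9.10 and F02E9.5 (264). Members found in neither replicate's list reached at most 138, at the summit 333 bp past daf-5, a Sno/Ski-family gene of dauer formation, followed by those before the autophagy gene epg-9 (133), before mxl-3 (131), before fbp-1, the fructose-bisphosphatase gene (130), and between F09C8.1 and F09C8.2 (128). Another 31 summits in long tandem gaps were that close to a small non-coding gene and are not members. The interval width of 620 bp, the commonest in the list, was that of 223 members (57.8%), against 52.4% of all nuclear regions.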

How the data were processed

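The deposited files are peak lists on genome assembly ce11, per the labels. Each row holds an interval, the authors' signal, a summit offset and, in the ranked lists, a deposited −log10 global irreproducible discovery rate (IDR). All members were at or above 2.01 on that −log10 scale. For the aligner, the peak caller, the depth and the unit of the deposited signal, the sources used here give nothing. Intervals cover counting error only. Signals were compared within a list. Between the replicates' ranked lists they were set side by side, counted by which was higher, and correlated by rank. With depth and unit unknown, which replicate was higher may depend on the scale of each list.

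Overlapping rows of the conservative thresholded list (3035 nuclear rows) were merged to 2416 regions, each keeping the summit of its row of highest signal. Genes came from the Ensembl 115 annotation of WBcel235. Overlap with a replicate's list needed 1 shared bp, and a replicate's signal was the highest among the rows of its ranked list that hold the summit. Usable gap sequence excludes 250 bp around small non-coding genes. Two-sided Fisher's exact tests with Benjamini-Hochberg adjustment within each family of comparisons, exact binomial tests and 95% Wilson intervals were computed in Python 3.11.15 with scipy 1.17.1, at a threshold of 0.05. They treat regions and gaps as independent, which neighbouring ones are not, and they say nothing of the spread between animals. The distance and test functions were tested on simulated data.

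The members, gene families and motifs were chosen with earlier results of these data known. Named by rule were the 20 strongest members, those in the longest gaps, gaps with 4 members, the strongest members in neither list, those next to the length threshold and those next to rpl, rps, his, hsp, vit and unc genes. Other families, non-coding genes and E-box members named were picked after their values were seen. Alternatives were other lists, IDR and length thresholds, distances, each replicate alone, 1 summit per gap, and leaving out non-coding genes, the commonest interval width and, added after the data had been seen, chromosome X or the gaps after ribosomal protein genes.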

Additional observations from a re-analysis of the deposited data

How the results depend on the processing

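No paired analysis was possible because the series has 1 group. Of 192 alternative values, 138 kept their direction, their side of the threshold and their size within the rules used. The cause of the other changes was not tested, beyond the changed definition itself. Leaving out a replicate gave 233 to 331 members, a share past upstream ends of 26.9 to 42.5% and before downstream starts of 13.7 to 20.2%. The share nearer the downstream start was then 34.8 to 49.2%, the ratio of members' to all regions' median signal 0.964 to 0.973 (0.959 in the series list), the occupied tandem gaps 4.77 to 6.31%, and the members in non-coding genes 8.15 to 11.2%.

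In the wider list the share nearer the downstream start was 45.4% (exact binomial p = 0.054), the share in both lists was 39.1%, below short tandem (48.3%, adjusted p = 0.028) and divergent gaps (48.0%, adjusted p = 0.023, Fisher's exact tests), and the signal ratio was 0.969. At a global IDR of 0.001 there were 185 members, 14.6% before starts and a signal ratio of 0.978. There, 87.6% were in both lists, now above divergent (84.2%) and convergent gaps (79.3%, Fisher's exact test, adjusted p = 0.34 for both). The IDR scores replicate agreement, so this filter itself favours regions in both lists. At that IDR, 3.84% of tandem gaps were occupied against 2.61% of convergent ones (Fisher's exact test, adjusted p = 0.067), and 10.8% of members were in non-coding genes against 3.76% in short tandem gaps (adjusted p = 0.064). Without the commonest interval width there were 163 members, 14.2% of regions, 14.1% before starts and 41.1% past ends, a signal ratio of 1.02, 3.36% of gaps occupied against 2.82% of convergent ones (Fisher's exact test, adjusted p = 0.48), and 75.5% in both lists, now above convergent gaps (68.8%, adjusted p = 0.61).

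With gaps over 500 bp, members were 19.9% of regions, with 28.9% before starts, 41.8% past ends, 39.1% far from both, a signal ratio of 0.978 and 8.32% in non-coding genes. With gaps over 2000 bp these were 12.1%, 13.4%, 27.1% and 59.6%, 8.43% of gaps were occupied, and 11.6% were in non-coding genes, now above divergent gaps (10.4%, Fisher's exact test, adjusted p = 0.63). With only summits inside small genes dropped, 44.2% were in both lists, below short tandem (52.8%, Fisher's exact test, adjusted p = 0.049) and divergent gaps (53.0%, adjusted p = 0.032), and the signal ratio was 0.977. With 1 summit per gap the members were 13.8% of regions, the signal ratio was 1.04 and 10.5% were in non-coding genes against 10.4% for divergent gaps (Fisher's exact test, adjusted p = 1). Without non-coding genes the signal ratio was 0.969. With near taken as 250 bp, 8.55% were before starts, 22.0% past ends and 69.4% far, and with 1000 bp 28.8%, 45.3% and 33.2%. With near as 1000 bp, and with gaps over 500 bp, a summit near both genes counted in both shares, so these do not add up to the whole. Without chromosome X, a setting added after the data had been seen, 41.4% were in both lists, below short tandem (50.8%, Fisher's exact test, adjusted p = 0.046) and divergent gaps (52.2%, adjusted p = 0.015). Depth is unknown, so a gap without a summit is not shown to be unbound.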
